A study of Mus musculus with 6 samples.

Results

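Hair follicle stem cells sorted as activated were compared with hair follicle stem cells sorted as quiescent, across 18193 genes. It compared 4 of the 6 Affymetrix arrays of the study, chosen by their titles: 2 of quiescent stem cells (qHF-SC) and 2 of activated stem cells (aHF-SC). The other 2 arrays held transient-amplifying matrix cells (HF-TAC), the dividing progeny at the base of the growing follicle, which are not compared here: their intensities are printed beside those of the stem cells, and they entered the fit, where they help set the spread and so the p-values. With both left out, 634 genes passed as higher and 720 as lower, in place of the 558 and 584 given below. Female CD-1 mice, an outbred strain, gave the back skin for all cells, with no treatment. The qHF-SC were taken at P52 to P60 (postnatal days) and sorted on integrin α6 and CD34. The aHF-SC were taken at P28 to P30 and sorted on GFP, integrin α6 and CD34. The HF-TAC were taken at P28 to P30 and sorted on GFP, integrin α6 and ephrinB1. The labels do not say which transgene carried GFP, which cells it marked or whether the 2 replicates of a state were different animals, and a p-value here therefore reflects array-to-array spread, which may be technical. State, age and sorting scheme differed together and cannot be told apart.

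In the resting follicle these stem cells sit in the bulge, below the sebaceous gland, and rarely divide. At the start of each hair cycle a small number of them enter the cell cycle and feed the downgrowing follicle, while the bulge keeps its own identity. BMP and FGF18 signals are known to hold the cells at rest, and Wnt signals with BMP inhibitors from the dermal papilla to release them.

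Intensities are linear array units as the authors deposited them, and each gene is read by 1 probe set, the brightest of those paired with its symbol alone. Each change is the log2 difference aHF-SC minus qHF-SC with its standard error from limma, 2 arrays a state. A gene passed, and is said to have risen or fallen, where its p adjusted over all 18193 genes was under 0.05. Before adjustment, 3685 of these genes had a limma p under 0.05. In all, 558 genes (3.07%) rose and 584 (3.21%) fell in aHF-SC, together 6.28% of the genes tested. Of these, 417 rose and 383 fell by more than 2-fold, and 32 rose and 33 fell by more than 8-fold. The arrays of the 2 states did not overlap for 50.8% of all genes, so a gap between 2 pairs of arrays is by itself common. The median gene had a log2 difference of 0.00, and the replicates of a state correlated at 0.989 to 0.992 over all genes. The counts depended on single arrays, numbered here by replicate. Without qHF-SC array 2 they were 54 and 70, without qHF-SC array 1 379 and 258, without aHF-SC array 1 131 and 172, and without aHF-SC array 2 233 and 242. Only 33 rises (0.181% of genes tested) and 65 falls (0.357%) passed in each of those 4 fits, and a gene is called robust below where it is among them. In 85 rises both qHF-SC arrays, and in 83 falls both aHF-SC arrays, lay under 23.9, the highest array median. The files used give no detection calls, so the folds of such genes depend on the floor of the array scale and are not exact. Among those named below with a fold, they are Ccnb2, Melk, Cenpf, Kif11, Aspm, Spon1, Ereg, Robo2, Krt19, Krt28, Crym, Smarca1, Hdac8, Vnn1, Slc41a2, Fbln7, Cck, Grik1, Cpa4 and Fam13c. In bulk samples, fewer cells of a type and less RNA per cell cannot be told apart.

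**Figure D1:**
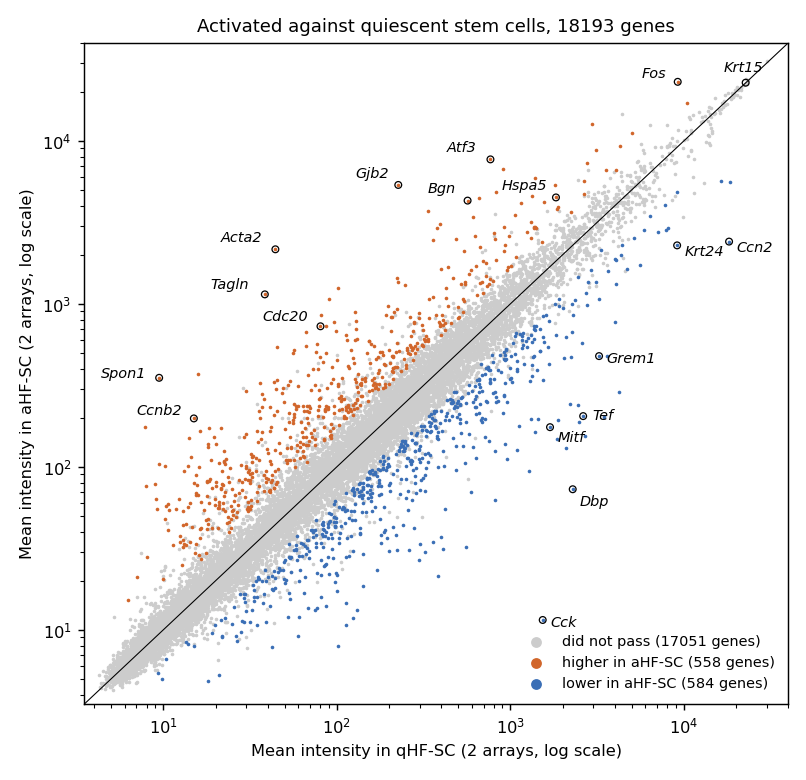
Mean intensity of each gene in the 2 qHF-SC arrays (x axis) against the 2 aHF-SC arrays (y axis), both on log scales, with 1 point per gene. Orange points are the 558 genes that rose, blue points the 584 that fell, grey points the 17051 that did not pass, and the line marks equal intensity; Krt15 lies on the line and Cck farthest below it.

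Genes that define bulge stem cells were read in both states, and not all at the same level. Of 23 bulge surface and secreted genes, described further below, 11 fell and none rose, 7 of them robust, with a median log2 difference of -0.95. Part of that list was drawn up from genes known to fall in these arrays, so its direction is not independent evidence. Krt15, the keratin used as a bulge marker, measured 22242 and 23101 in qHF-SC and 20796 and 24670.5 in aHF-SC, a log2 difference of 0.00 ± 0.25. The basal keratins Krt5 (0.12 ± 0.16) and Krt14 (0.20 ± 0.19), the stem cell regulators Sox9 (0.08 ± 0.23) and Tbx1 (0.18 ± 0.26), the Wnt-amplifying receptor Lgr5 (0.06 ± 0.25), the surface protein Gas1 (-0.05 ± 0.21) and the sorted integrin Itga6 (0.04 ± 0.21) had log2 differences of at most 0.20 in size, with overlapping arrays, and did not pass. CD34, on which both states were sorted, nevertheless read lower in the activated cells: Cd34 measured 7186 and 8557 in qHF-SC and 2385 and 3250.1 in aHF-SC, 2.82-fold lower (adjusted p = 0.026), a call that was lost whichever of the 4 arrays was left out. In HF-TAC it measured 15.3 and 25.7. The quiescence-linked factors Nfatc1 (log2 difference -0.94 ± 0.23, adjusted p = 0.060), Lhx2 (-0.51 ± 0.32, 0.45) and Fgf18 (-0.47 ± 0.27, 0.41) did not pass, and neither did the Wnt-repressing factor Tcf7l1 (1.09 ± 0.27, 0.063).

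Of 20 regulators of the hair matrix 1 passed, a rise (5%), near the 6.28% over all genes. The log2 difference was above 0 for 17 of them (median 0.31), against 9237 of all 18193 genes. Only 1 of the 20 had an unadjusted limma p under 0.05, against 3685 of all genes. Shh, the Hedgehog ligand of the matrix, measured 26.4 and 18.1 in qHF-SC and 23 and 39.8 in aHF-SC, against 735 and 906 in HF-TAC. Lef1, the Wnt effector of the precortex, measured 38.4 and 32.6 in qHF-SC and 41.4 and 43.3 in aHF-SC, against 400.1 and 728 in HF-TAC. Msx1 (adjusted p = 0.56), Msx2 (0.97), Dlx3 (0.27) and Hoxc13 (0.396) did not pass either. The risen member was the homeobox gene Dlx4, from 23.6 and 21.4 in qHF-SC to 46.3 and 61.4 in aHF-SC, with 438 and 526 in HF-TAC; it lost its call without 3 of the 4 arrays. Shh, Lef1, Msx1 and Msx2 were brighter in both HF-TAC arrays than in any of the 4 stem cell arrays.

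**Figure D2:**
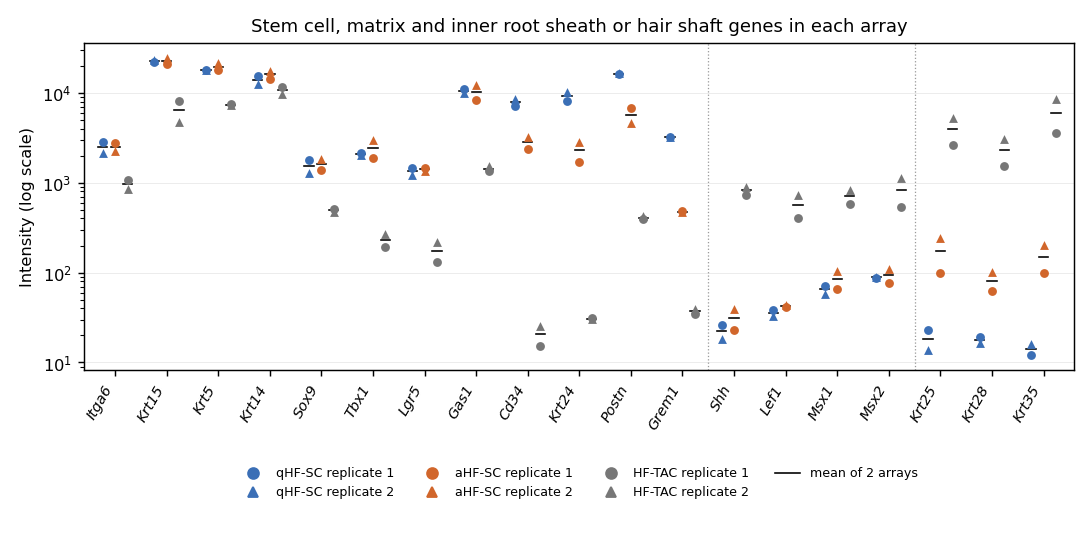
Intensity (y axis, log scale) of bulge stem cell genes (left), matrix regulators (middle) and inner root sheath or hair shaft keratins (right) in each of the 6 arrays; circles are replicate 1, triangles replicate 2, and bars the mean of the 2 arrays. Krt15, Krt5 and Gas1 sit at the same height in both stem cell states, Shh, Lef1, Msx1 and Msx2 are highest in HF-TAC, and Krt25, Krt28 and Krt35 lie between qHF-SC and HF-TAC in the activated cells.

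The broadest rise in the activated cells was in genes of cell division. Over 4 lists of mitosis genes, 48 of 104 measured members rose and 1 fell, with a median log2 difference of 1.18, against 3.07% of all genes rising and a median of 0.00. Cyclin B2 (Ccnb2), a partner of the mitotic kinase Cdk1, measured 18 and 11.9 in qHF-SC and 262 and 134 in aHF-SC, 12.8-fold higher against that low quiescent level (log2 3.67 ± 0.35, adjusted p = 0.0035). Cdc20, which activates the ubiquitin ligase that ends metaphase, measured 88.2 and 72.7 in qHF-SC and 979 and 477 in aHF-SC. Ube2c, the ubiquitin-conjugating enzyme of that same ligase, measured 68 and 65.2 in qHF-SC and 714 and 382 in aHF-SC. Ccnb2, Cdc20 and Ube2c were robust, with no overlap between the states. Cdk1 itself rose 7.29-fold (adjusted p = 0.0051) and the kinase Melk 6.71-fold (0.013).

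These promoters are shown because many genes of these lists share a pair of short elements. The CHR (TTTGAA or TTCGAA on either strand), known to bind the DREAM and MuvB complexes that time mitotic genes, and the CCAAT box (CCAAT on either strand), bound by NF-Y, are in capitals in the 100 bases before the RefSeq start of the 4 largest rises among the mitotic kinases and cyclins with an entry in the RefSeq table, all in build GRCm38.p6. The positions, in the order printed, are chr9:70421555-70421654 on the minus strand, chr4:118437344-118437443 on the minus strand, chr2:164769829-164769928 on the plus strand and chr10:69352913-69353012 on the minus strand.
Ccnb2: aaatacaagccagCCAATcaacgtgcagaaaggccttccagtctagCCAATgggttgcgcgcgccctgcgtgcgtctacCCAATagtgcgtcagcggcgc
Cdc20: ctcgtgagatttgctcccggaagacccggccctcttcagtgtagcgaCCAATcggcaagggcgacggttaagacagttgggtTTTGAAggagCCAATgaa
Ube2c: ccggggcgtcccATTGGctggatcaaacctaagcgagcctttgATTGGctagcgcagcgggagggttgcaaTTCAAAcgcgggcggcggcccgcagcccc
Cdk1: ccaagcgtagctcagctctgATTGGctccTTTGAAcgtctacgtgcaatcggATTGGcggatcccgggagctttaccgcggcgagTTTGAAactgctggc
Ccnb2 held 3 CCAAT boxes and no CHR in these 100 bases, while Cdc20 and Ube2c held 2 CCAAT boxes and 1 CHR each and Cdk1 held 2 of both. Ccnb2 did hold a CHR in the wider window described next. Within 250 bases before to 50 after the start, 58 of the 87 mitosis genes with an entry held a CHR (66.7%), against 17.5% of the 14452 tested genes with an entry, and 59 held a CCAAT box (67.8% against 42.0%). Over all 418 risen genes with an entry the shares were 22.7% and 52.6%, and over the 460 fallen genes 17.6% and 40.9%. A match describes the letters of this window, and binding was not measured.

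At the kinetochore, which links chromosomes to the spindle, 6 of 26 members rose and none fell (median log2 difference 0.82). The centromeric histone Cenpa measured 52 and 22.5 in qHF-SC and 340.2 and 219 in aHF-SC, 7.99-fold higher. Spc24, a subunit of the Ndc80 complex, was robust at 23.5 and 20.3 in qHF-SC and 104 and 85.9 in aHF-SC. Its partner Spc25 rose 4.8-fold (adjusted p = 0.013), Cenpf 6.37-fold (0.021) and Ska1 2.58-fold (0.048).

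Spindle motors and cytokinesis genes had the largest share of risen members, 19 of 29, with none fallen (median log2 difference 1.67). Cep55, needed for the final cut between daughter cells, measured 9.67 and 10.7 in qHF-SC and 147 and 55.8 in aHF-SC, and the motors Kif11 and Kif22 rose 5.15-fold and 5.13-fold. The spindle protein Nusap1 rose 5.14-fold (adjusted p = 0.021) and Aspm 4.94-fold (0.036). For Aspm, read by 5 probe sets, the mean over them gave a log2 difference of 0.64 in place of 2.30 ± 0.47 and did not pass; the same held for Kif11, Nusap1, Cenpf, Ska1 and Top2a, each rising less over the mean of its probe sets. Among condensins, cohesin regulators and chromosome proteins, 7 of 20 rose (median 1.12). The sororin gene Cdca5 was robust at 19.8 and 20.4 in qHF-SC and 175 and 99.3 in aHF-SC, the survivin gene Birc5 rose 9.45-fold (0.0077), topoisomerase Top2a 5.74-fold (0.012) and the passenger protein Cdca8 4.07-fold (0.013). Without qHF-SC replicate 2 the risen members fell to 3 of the kinases and cyclins, 2 of the kinetochore, 0 of the spindle genes and 1 of the chromosome genes. With qHF-SC array 1 left out they were 12, 3, 7 and 3, with aHF-SC array 1 left out 8, 3, 7 and 4, and with aHF-SC array 2 left out 19, 9, 20 and 11.

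The S-phase side moved less. Of 42 genes of DNA replication and nucleotide supply, 6 rose and none fell (median log2 difference 0.44). The ribonucleotide reductase subunit Rrm2 measured 303 and 138 in qHF-SC and 1119 and 743 in aHF-SC, the helicase subunit Mcm5 137 and 171 in qHF-SC and 718 and 459.8 in aHF-SC, and thymidine kinase Tk1 76.8 and 60.5 in qHF-SC and 288 and 184 in aHF-SC. Timeless, a replication fork protein, rose 2.33-fold (0.023) and Mcm2 2.21-fold (0.032). The count of rises was 3 without qHF-SC array 1 or without aHF-SC array 2, 1 without aHF-SC array 1 and 0 without qHF-SC array 2. Of 21 G1 cyclins, CDKs, E2F factors and pocket proteins only E2f8, a late E2F repressor, passed (32.2 and 29 in qHF-SC and 90.2 and 75.3 in aHF-SC), and not with any array left out; the G1 kinase Cdk4 read 1.55-fold higher without passing (adjusted p = 0.074). Of 21 homologous recombination and Fanconi genes none passed. An unadjusted limma p under 0.05 was found for 8 of them, against 3685 of all 18193 genes. The nearest to passing were Rad51ap1 (log2 0.97 ± 0.26, adjusted p = 0.079) and the nuclease Eme1 (0.84 ± 0.21, 0.068). Among 8 CDK inhibitors, Cdkn3, a phosphatase of the mitotic program, and Cdkn2c rose, from 9.3 and 11.1 to 65.2 and 30.2 and from 160.2 and 176 to 354 and 266. Cdkn1c, the p57 inhibitor linked to cell cycle exit, fell from 109 and 145 to 46 and 48.

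The activated cells stood between the other states for these genes. All 48 risen mitosis genes were higher in both HF-TAC arrays than in both aHF-SC arrays, against 185 of all 558 risen genes. The median mitosis gene had 24.5% of its HF-TAC intensity in aHF-SC and 9.35% in qHF-SC. Within aHF-SC, 91 of the 104 mitosis genes were brighter in replicate 1 than in replicate 2. The median log2 difference, replicate 2 minus replicate 1, was -0.82 in aHF-SC and -0.13 in qHF-SC for these genes, against 0.02 in aHF-SC over all genes.

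**Figure D3:**
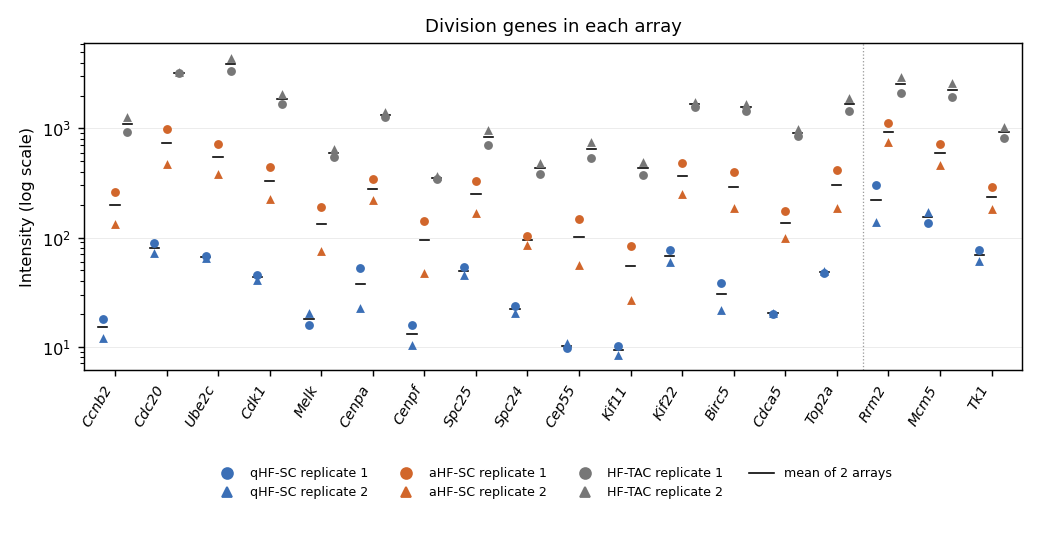
Intensity (y axis, log scale) of 15 mitosis genes (left of the dotted line) and 3 DNA replication genes (right of it) in each array, with symbols and bars as in the plot of marker genes. In each gene shown the aHF-SC points lie above qHF-SC and below HF-TAC, and the aHF-SC circle (replicate 1) lies above the triangle (replicate 2).

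The circadian clock was the list with the most falls. In this clock the factors Clock and Arntl (Bmal1) drive the Per and Cry repressors, the nuclear receptors Nr1d1 and Nr1d2 that repress Arntl, and the PAR bZIP output factors Dbp, Tef and Hlf. Of 22 members, 12 fell and 1 rose (median log2 difference -1.21), against 3.21% and 3.07% of all genes. The members are named in full here, beyond the rule for named genes, and were chosen with their values known. Dbp fell the most, from 1992 and 2578 in qHF-SC to 84.5 and 61.1 in aHF-SC, 31.5-fold (log2 -4.98 ± 0.21, adjusted p = 0.00036). Tef fell from 2319 and 2931 to 229 and 181, 12.8-fold, and Hlf from 212 and 271 to 48.4 and 39.9, 5.46-fold. All 3 PAR bZIP factors were robust, with no overlap between the states.

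Of the repressors, Per2 fell from 364 and 449 to 31 and 31.2 (13-fold) and Per3 from 318 and 274 to 28.5 and 25.1 (11.1-fold), and both were robust. Per1, which also answers to growth factor and stress signals, fell 3.59-fold from 603 and 816 to 174 and 219 (limma adjusted p = 0.020). Its fall was not robust. Cry1 fell 2.31-fold (0.019) and Cry2 2.94-fold (0.0065), Cry2 being robust. Nr1d2 fell 13.6-fold, from 2416 and 2569.7 to 230.4 and 146. Its paralog Nr1d1 (29.3 and 56.7 in qHF-SC and 15.4 and 24.2 in aHF-SC) did not pass (adjusted p = 0.16). Rora, the activating counterpart of the Nr1d receptors, fell 2.31-fold (0.021); Cry1 and Rora lost their calls with any stem cell array left out, and Rora over the mean of its 9 probe sets.

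Of the drivers, Arntl was the member of the list that rose, from 74.8 and 52.6 to 208 and 267, 3.75-fold (log2 1.91 ± 0.22, adjusted p = 0.0065), and was robust, whereas its partners Clock (-0.33 ± 0.16, 0.31) and Npas2 (0.53 ± 0.24, 0.27) did not pass. Nfil3, which competes with the PAR bZIP factors for their DNA site, read 1.95-fold higher in aHF-SC without passing (adjusted p = 0.084). Ciart (0.12), Bhlhe40 (0.74), Bhlhe41 (0.702) and the kinases Csnk1d (0.95) and Csnk1e (0.26) did not pass. Usp2, a clock-driven deubiquitinase, fell 3.21-fold (0.017). Wee1, which restrains Cdk1 and is a clock target, fell 3.68-fold (0.014), the fallen member of the mitosis lists.

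All 12 fallen clock genes were also lower in both HF-TAC arrays than in both qHF-SC arrays, as were 533 of all 584 fallen genes; Dbp measured 73.5 and 69.9 and Per2 14.7 and 22.2 in HF-TAC. The count of falls was 10 without qHF-SC array 1, 7 without qHF-SC array 2, and 8 without either aHF-SC array. For Per2, Per3, Tef, Nr1d2 and Arntl the probe sets of the gene differed: their mean gave log2 differences of -1.83, -1.01, -2.05, -2.18 and 1.01, with the same sign and an adjusted p under 0.05 in each. The labels give no hour of the day at which tissue was taken.

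**Figure D4:**
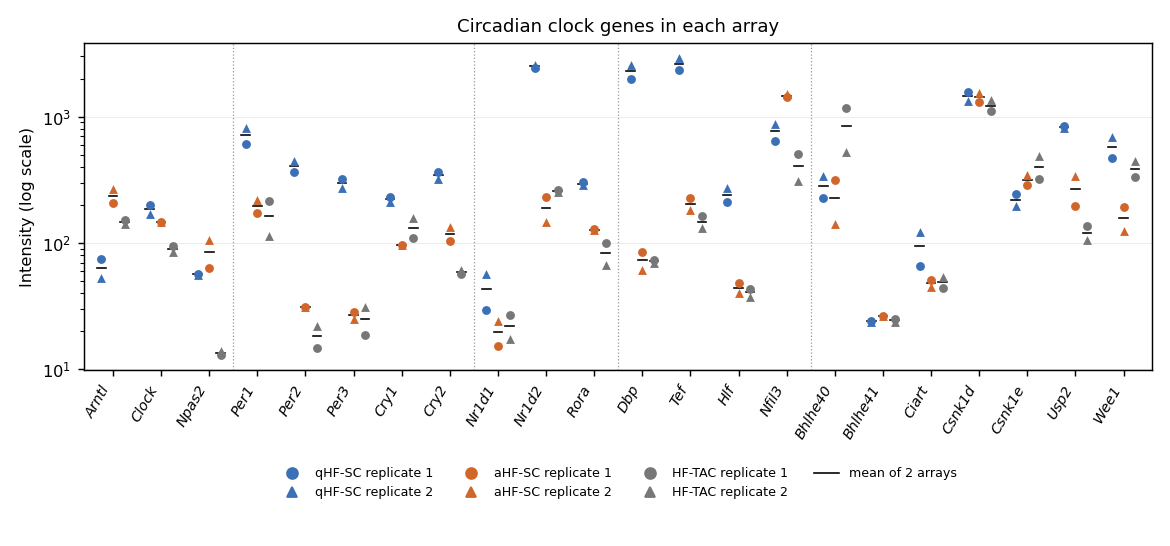
Intensity (y axis, log scale) of the 22 clock genes in each array, with symbols and bars as in the plot of marker genes; dotted lines part the drivers, the Per and Cry repressors, the nuclear receptors, the PAR bZIP factors with Nfil3, and the others. In Dbp, Tef, Per2, Per3 and Nr1d2 the qHF-SC points stand more than 8-fold above the aHF-SC points, and in Arntl they lie below them.

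The promoters of fallen clock genes are shown with the elements through which the clock is known to act, the E-box (CACGTG) bound by Clock and Arntl and the D-box (TTATGTAA or TTACGTAA) bound by the PAR bZIP factors. Each stretch runs from 30 bases before the first to 30 after the last match upstream of the RefSeq start in build GRCm38.p6, with the E-box of Per1, Cry1 and of the Tef start that lies farther upstream, and the D-boxes of Per3, in capitals. They lie at chr11:69098753-69098818 on the plus strand, chr10:85185079-85185144 on the minus strand, chr15:81802516-81802581 on the plus strand and chr4:151044786-151044900 on the minus strand.
Per1: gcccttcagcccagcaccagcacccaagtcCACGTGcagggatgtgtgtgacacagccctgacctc
Cry1: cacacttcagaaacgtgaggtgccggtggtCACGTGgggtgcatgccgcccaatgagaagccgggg
Tef: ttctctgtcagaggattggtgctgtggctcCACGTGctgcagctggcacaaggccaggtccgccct
Per3: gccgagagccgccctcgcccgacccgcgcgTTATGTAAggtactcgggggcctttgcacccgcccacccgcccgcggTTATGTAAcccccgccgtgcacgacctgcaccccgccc
An E-box lay in the window of 5 of the 18 clock genes with an entry, against 10.2% of all genes with an entry. The D-box was in 1 of them, Per3, which held 2 copies, against 1.02% of all genes. Dbp, Hlf and Cry2, which fell, held neither element in this window. Among all fallen genes the shares were 11.7% for the E-box and 1.09% for the D-box.

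Immediate early genes, which answer within minutes to growth factors, wounding or handling of cells, rose in part in the activated cells. Of 45 members 16 rose and 1 fell (median log2 difference 0.68). The stress factor Atf3 measured 767 and 767 in qHF-SC and 6248 and 9139 in aHF-SC, 9.85-fold higher, and the orphan receptor Nr4a1 392 and 394 in qHF-SC and 2528 and 3665 in aHF-SC, both robust. Socs3, a brake on cytokine signalling, rose 7.04-fold (adjusted p = 0.017) and Zfp36, which destabilises inflammatory mRNAs, 7.0-fold (0.0061). Egr1, a serum response gene, measured 3850.1 and 2032 in qHF-SC and 10217 and 15127 in aHF-SC, and Egr2 286 and 110.0 in qHF-SC and 934 and 1011 in aHF-SC. Fos, a subunit of AP-1, rose 2.55-fold, from 11089 and 7319 to 21949 and 24069. Of the 45 genes, 34 were brighter in aHF-SC replicate 2 than in replicate 1, the reverse of the mitosis genes. In HF-TAC, sorted at the same age, Atf3 measured 5460.2 and 3084 and Egr1 6629 and 7449. The median of the 45 genes had 135.6% of its HF-TAC intensity in aHF-SC and 65.85% in qHF-SC. Of the 16 rises, 3 were higher in both HF-TAC arrays than in both aHF-SC arrays, against 185 of all 558 risen genes. The fallen member was Ccn2 (CTGF), a Yap target, which measured 14484 and 21899 in qHF-SC and 2916 and 1900.0 in aHF-SC, 7.57-fold lower and robust, and 191 and 195 in HF-TAC. The count of rises was 13 without qHF-SC array 1, 2 without qHF-SC array 2, 10 without aHF-SC array 1 and 8 without aHF-SC array 2. Of 18 heat shock proteins, 1 rose and 1 fell (5.56% each, against 3.07% and 3.21% of all genes). The cochaperone Dnajb1 rose (3079 and 2217 in qHF-SC and 4755 and 6611 in aHF-SC) and the small heat shock protein Hspb8 fell (3129 and 4985 in qHF-SC and 1109.6 and 1532 in aHF-SC).

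Chaperones of the endoplasmic reticulum (ER), which fold secreted and membrane proteins, rose in part. Of 18 members 7 rose and none fell (median log2 difference 0.70). Hspa5 (BiP), the main ER Hsp70, measured 2157 and 1502 in qHF-SC and 4505 and 4483 in aHF-SC, 2.5-fold higher (log2 1.32 ± 0.20, adjusted p = 0.015). The secreted stress factor Manf measured 991 and 877 in qHF-SC and 1989 and 2598 in aHF-SC, and the lectin chaperone Calr 3498 and 3569 in qHF-SC and 5482 and 7839 in aHF-SC. Creld2 (1.97-fold, 0.015), the disulfide isomerases Pdia3 (1.97-fold, 0.030) and Pdia4 (1.82-fold, 0.042) and the ER Hsp90, Hsp90b1 (1.74-fold, 0.034) also passed, the last 2 being named after their values were seen. The sensors and factors of the unfolded protein response did not pass: Xbp1 (0.61 ± 0.18, adjusted p = 0.11), Atf6 (-0.46 ± 0.15, 0.14) and Ern1 (-0.03 ± 0.18, 0.96), likewise named for contrast. The count of rises was 2 without qHF-SC array 1, 0 without qHF-SC array 2, 3 without aHF-SC array 1 and 1 without aHF-SC array 2.

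The ER stress element (CCAAT, any 9 bases, then CCACG, on either strand, so that it contains a CCAAT box), known to bind NF-Y and Atf6, is shown in capitals for 3 risen chaperones because it is rare elsewhere. It lay in the window of 7 of the 15 ER genes with an entry (Hspa5, Hsp90b1, Calr and Creld2, which rose, and Canx, Pdia6 and Dnajc3, which did not pass), against 20 of all 14452 genes (0.138%). The stretches lie at chr2:34771995-34772073 on the plus strand, chr15:88819490-88819568 on the plus strand and chr8:84847045-84847123 on the minus strand, again in build GRCm38.p6.
Hspa5: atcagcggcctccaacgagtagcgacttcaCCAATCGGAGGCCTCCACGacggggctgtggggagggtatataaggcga
Creld2: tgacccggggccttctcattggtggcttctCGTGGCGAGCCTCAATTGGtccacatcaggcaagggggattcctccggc
Calr: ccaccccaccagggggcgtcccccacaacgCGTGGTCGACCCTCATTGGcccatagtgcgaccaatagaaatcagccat
Risen and unpassed members of the list both held it.

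Targets of Atf4, the factor of amino acid stress, were split. Of 23 members 4 rose and 1 fell. The cationic amino acid carrier Slc7a1 measured 608 and 145 in qHF-SC and 3736 and 2133 in aHF-SC and the neutral carrier Slc1a4 348 and 212 in qHF-SC and 885 and 650.2 in aHF-SC, while Atf4 itself rose 1.93-fold (0.029) and Ddit4, an mTORC1 inhibitor, 1.82-fold (0.025). The folate enzyme Mthfd1l fell from 273 and 367 to 100.2 and 77.9. In glutathione and thioredoxin metabolism 6 of 34 rose and 1 fell. The catalytic subunit of glutamate-cysteine ligase, Gclc, was robust at 1054 and 793 in qHF-SC and 2985 and 2897 in aHF-SC, and its modifier Gclm rose 2.84-fold (0.026). Thioredoxin reductase Txnrd1 rose 6.68-fold, glutathione reductase Gsr 4.34-fold and Mgst2 2.77-fold. The quiescent arrays spread widely for these (Txnrd1 70.7 and 25.2, Gsr 129 and 71.2). The rises in Atf4 targets and redox genes numbered 3 and 5 without qHF-SC array 1, 0 and 1 without qHF-SC array 2, 0 and 1 without aHF-SC array 1, and 0 and 2 without aHF-SC array 2.

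Genes of the actin cytoskeleton usually described in smooth muscle rose in number: 11 of 27, with none fallen (median log2 difference 0.56). Acta2, smooth muscle actin, showed 59 and 29.4 in qHF-SC and 2892 and 1428 in aHF-SC, 48.8-fold higher (log2 5.61 ± 0.45, adjusted p = 0.0020), and Tagln (SM22) 43.9 and 33 in qHF-SC and 1539 and 746 in aHF-SC, 28.2-fold higher (0.0016). Both were robust, and both were brighter in aHF-SC replicate 1 than in replicate 2. The Acta2 value rests on a probe set that may bind related transcripts; its other 2 probe sets stayed between 6.14 and 9.43 on every array, below the array medians. The brighter of these 2 had a log2 difference of -0.15 (limma adjusted p = 0.69), which therefore says nothing of the direction of Acta2. Myosin light chain Myl9 rose 3.1-fold (0.027), the LIM protein Pdlim7 3.61-fold (0.036) and calponin Cnn3 2.81-fold (0.049). Rgs5 and Myh11, markers of vascular smooth muscle and pericytes chosen after their values were seen, lay below the array medians. Rgs5 measured 8.38 and 6.71 in qHF-SC and 7.75 and 11.4 in aHF-SC. Myh11 measured 15.4 and 15.7 in qHF-SC and 14.8 and 15.3 in aHF-SC. Des did not pass (44.3 and 48 in qHF-SC and 55.7 and 60.4 in aHF-SC, limma adjusted p = 0.33). In a list of 10 pericyte and smooth muscle markers, the summed intensity was 969 to 998 in qHF-SC and 1233 to 1536 in aHF-SC, and 2 members rose, Mcam (110.3 and 49.4 in qHF-SC and 394 and 550.3 in aHF-SC) and Notch3 (88.8 and 102 in qHF-SC and 183 and 161 in aHF-SC). The part of such cells in the Acta2 and Tagln values was not tested. A CArG box, the serum response factor site, lay in 4 of the 24 contractile promoters, against 1.58% of all genes with an entry. None lay in the promoter windows of Acta2 and Cnn3, which rose. The box is shown in capitals for Myl9, at chr2:156775273-156775342 on the plus strand in build GRCm38.p6.
Myl9: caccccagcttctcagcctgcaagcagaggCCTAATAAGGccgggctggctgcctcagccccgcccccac
The count of risen contractile genes was 10 without qHF-SC array 1, 2 without qHF-SC array 2, 3 without aHF-SC array 1, 4 without aHF-SC array 2, and 6 in a fit that blocked on replicate number.

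Basement membrane and matrix genes moved both ways. Among 27 collagens 5 rose and 3 fell. The basement membrane chains Col4a1 (1030.4 and 608 in qHF-SC and 2673 and 2348 in aHF-SC) and Col4a2 (739.9 and 418 in qHF-SC and 1326 and 1720.1 in aHF-SC) rose, with Col16a1 (3.17-fold) and Col6a3 (19.2 and 20.4 in qHF-SC and 53.2 and 62.7 in aHF-SC). Col8a2, a short-chain collagen, fell from 2144 and 3040.4 to 478 and 679. The laminin chains Lamb1 (354 and 137 in qHF-SC and 1680.2 and 930.0 in aHF-SC), Lamc1 (2.75-fold, 0.023) and Lama5 (1.85-fold, 0.027) and their receptor Itga3 (2.02-fold, 0.027) were the 4 risen of 27 laminin, hemidesmosome and integrin genes, of which 2 fell. Dst, which holds hemidesmosomes to keratin, fell from 8071 and 8053 to 3184 and 2664. Without qHF-SC replicate 2 none of these collagen or laminin rises passed, and without aHF-SC array 1 or 2 only 1 collagen rise passed.

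Matricellular and elastic fibre proteins rose in 9 and fell in 3 of 38 members. Spon1 (F-spondin) measured 8.72 and 10.2 in qHF-SC and 572 and 131 in aHF-SC, 29-fold higher against a quiescent level under the array medians, with a wide gap between the activated arrays. Fibronectin Fn1 measured 103 and 89 in qHF-SC and 909 and 639.8 in aHF-SC and the microfibril protein Mfap2 157 and 69.8 in qHF-SC and 565 and 730.0 in aHF-SC, while Efemp1 rose 6.26-fold (0.014) and Spon2 3.62-fold (0.010). Periostin (Postn), a secreted matrix protein, fell from 16135 and 16423 to 6837 and 4563. Among 12 small leucine-rich proteoglycans, biglycan Bgn measured 881 and 252 in qHF-SC and 4565 and 4029 in aHF-SC, whereas asporin Aspn fell from 287 and 317 to 56.8 and 10.3. Decorin Dcn and Prelp rose too, from 28.8 and 16.6 to 53.2 and 86.8 and from 41 and 41.2 to 70.4 and 70.5; HF-TAC measured 3646 and 5927 for Dcn, which is usually made by fibroblasts. A list of 13 fibroblast markers summed to 1635 to 1934 in qHF-SC and 1632 to 1838 in aHF-SC. Its median intensity was 28.8 and 17.7 in qHF-SC and 40.7 and 39.4 in aHF-SC. Of the 13, 1 rose and 1 fell, and 6 had an unadjusted limma p under 0.05, against 3685 of all 18193 genes. The part of fibroblasts in these values was not tested. The matricellular rises numbered 1 without qHF-SC array 2, 4 without aHF-SC array 2, 5 without aHF-SC array 1 and 7 without qHF-SC array 1. Of 35 matrix proteases and inhibitors 2 passed (5.71%, near the 6.28% over all genes), both of them rises. They were urokinase Plau (16.7 and 9.5 in qHF-SC and 29 and 38 in aHF-SC) and Timp1 (23.2 and 27 in qHF-SC and 48.4 and 60.6 in aHF-SC).

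Cell contacts changed at a few genes. The gap junction proteins Gjb2 and Gjb6, connexins of thickened and growing epidermis, rose 61.5-fold and 15.4-fold, but the quiescent arrays themselves lay far apart: Gjb2 measured 435 and 16.2 in qHF-SC and 6804 and 3917 in aHF-SC, and Gjb6 154 and 27 in qHF-SC and 1491 and 659 in aHF-SC. Neither passed without qHF-SC array 2 or without either aHF-SC array. P-cadherin Cdh3 rose 2.53-fold (0.036), and Cdh13, a cadherin anchored by lipid, fell from 1125 and 1646 to 171 and 157. Of 20 claudins and tight junction genes Cldn1 (2.04-fold lower, 0.048) and Ocln (1.95-fold lower, 0.041) fell and none rose, and neither kept its call with any array left out. Of the Yap and Tead targets 1 of 20 rose and 3 fell (5% and 15%, against 3.07% and 3.21% of all genes). The coagulation receptor F3 rose 3.03-fold. Besides Ccn2, the ectonucleotidase Nt5e fell from 4587 and 4853 to 1920.0 and 1350.0 and Crim1 1.91-fold.

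Over 14 signalling lists 20 of 368 genes rose and 21 fell (11.1%, against 6.28% of all genes). In the BMP pathway 2 of 33 rose and 4 fell (6.06% and 12.1%, against 3.07% and 3.21% of all genes). Among ligands, Bmp6, which holds bulge cells at rest, rose from 56.4 and 59.3 to 186 and 268, and the procollagen protease Bmp1 rose 2.47-fold (0.037). The falls included the antagonists Grem1 and follistatin Fst, Grem1 from 3257 and 3226 to 486 and 469 (robust) and Fst from 2887 and 2537 to 1329 and 1004. The target Id2, a helix-loop-helix inhibitor, fell 1.86-fold (0.049). In the TGF-beta list the latent binding protein Ltbp2 fell from 629 and 993 to 115 and 137 (robust). The corepressor Tgif2 rose from 67.5 and 38.9 to 209 and 221. No other of the 22 members passed, so that 4.55% rose and 4.55% fell.

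Wnt ligands and receptors gave 3 rises and 1 fall in 39 (7.69% and 2.56%, against 3.07% and 3.21% of all genes). The Wnt amplifier Rspo1 measured 22.2 and 8.91 in qHF-SC and 82.1 and 72.4 in aHF-SC, Wnt5a 15.9 and 7.8 in qHF-SC and 59 and 51.5 in aHF-SC and Wnt9a 59.7 and 33.9 in qHF-SC and 124 and 118 in aHF-SC, with 395 and 633 for Wnt5a in HF-TAC; for Wnt5a and Wnt9a the mean over their probe sets did not pass. The receptor Fzd3 fell from 772 and 865 to 282 and 291 and was robust, although the mean of its 6 probe sets (-0.39) did not pass. Of 30 inhibitors, transducers and targets 2 passed (6.67%, near the 6.28% over all genes), both of them falls. The secreted inhibitor Dkk3 measured 3066 and 3371 in qHF-SC and 1015 and 1112 in aHF-SC (robust). The target and feedback inhibitor Axin2 measured 167 and 193 in qHF-SC and 79.7 and 55.9 in aHF-SC. In the Hedgehog list 1 of 15 members passed (6.67%), a rise. It was Hhat, which attaches palmitate to the ligand (25.6 and 23.5 in qHF-SC and 45.3 and 39.4 in aHF-SC). Over the mean of probe sets 0 members rose and 1 fell. The coreceptor Boc read 1.87-fold lower without passing (limma adjusted p = 0.057). In the Notch list of 25 members 4% fell and 4% rose. The noncanonical ligand Dlk1 fell (49.3 and 80.1 in qHF-SC and 14.9 and 18.8 in aHF-SC) and Notch3 rose 1.81-fold (limma adjusted p = 0.034).

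Among FGF genes, Fgf5, the signal that ends hair growth, rose from 8.89 and 7.02 to 112 and 40.1, and Fgf1 fell from 176 and 202 to 45.2 and 36.3 (robust). The ERK-driven factor Etv5 rose 2.7-fold (0.040) while the feedback inhibitor Spry1 fell 2.16-fold (0.034). In the EGF family Hbegf rose from 125 and 40.6 to 489 and 386 and epiregulin Ereg fell 3.23-fold. Lrig1, a receptor brake and a stem cell marker of the upper follicle, rose 2.68-fold (0.039) while Lrig3 fell 2.3-fold (0.019). None of 18 genes of the insulin-like growth factor system passed. The nearest were the protease Htra1 (-1.41 ± 0.33, 0.053) and Igfals (1.15 ± 0.29, 0.063). The count with an unadjusted limma p under 0.05 was 7, against 3685 of all 18193 genes. Eph receptors rose in 3 of 18 measured members of their list, Ephb1 (78.4 and 33 in qHF-SC and 190.4 and 195 in aHF-SC), Ephb3 (2.58-fold, 0.011) and Epha1 (2.09-fold, 0.032). Guidance genes gave 4 falls, Sema3e (1367 and 1367 in qHF-SC and 663 and 288 in aHF-SC), the semaphorin receptor Plxna2 (2.88-fold), Nrp1 (2.51-fold) and the Slit receptor Robo2 (1.57-fold), and 1 robust rise, Slit3 (45.5 and 62.5 in qHF-SC and 154 and 150.3 in aHF-SC). Of 21 retinoid genes 1 passed, a fall (4.76%, near the 6.28% over all genes). It was the retinoic acid hydroxylase Cyp26b1, from 212 and 392 to 59.7 and 83.8.

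Secreted peptides held the steepest fall of all. The peptide hormone gene Cck measured 1639 and 1429.5 in qHF-SC and 11.8 and 11.2 in aHF-SC, 133-fold lower, with the activated level under the array medians (log2 -7.06 ± 0.20, adjusted p = 4.6e-05), and 18.9 and 13.1 in HF-TAC. Angptl7 fell from 2130.3 and 3258 to 151 and 159, and the neurotrophin Bdnf 2.71-fold (0.016). Endothelin Edn2 rose from 52.4 and 55.5 to 362 and 306 and was robust, and adrenomedullin Adm rose 1.95-fold (0.043). Of 27 chemokines Ccl7 alone passed (15.6 and 20.8 in qHF-SC and 37.3 and 52.2 in aHF-SC), and not with any array left out; Cxcl9, an interferon target, had a log2 difference of -1.46 ± 0.45 (0.12). The interferon list gave 3 falls and 1 rise in 30: Usp18 fell from 101 and 147 to 24 and 37, Isg20 2.15-fold and Igtp 1.81-fold, and Irf7 rose 2.59-fold (0.023). The lipid-presenting molecule Cd1d1 rose, robustly, from 35.1 and 33 to 124 and 102, and H2-M3 did not pass (-1.33 ± 0.37, 0.090).

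Among bulge genes on the surface or secreted, 11 of 23 fell and none rose (median log2 difference -0.95); part of this list was drawn up from genes known to fall in these arrays, so its direction is not independent evidence. Wfdc3 fell from 3014 and 3878 to 237 and 166, the exchange factor Ngef from 469 and 640.2 to 33 and 31.1, and the bulge keratin Krt24 from 8094 and 10172 to 1713 and 2853. The count of falls was 7 to 9 with 1 array left out, lowest without qHF-SC array 2. Of 32 bulge transcription factors 2 passed (6.25%, near the 6.28% over all genes), both of them rises. They were Sox4 (918 and 424 in qHF-SC and 2505 and 1977 in aHF-SC) and Barx2 (212 and 155 in qHF-SC and 404 and 565 in aHF-SC). Barx2 lost its call with any stem cell array left out, and Sox4 with any but qHF-SC array 1. In the outer keratins Krt17, a keratin of stressed and growing epithelium, rose 3.03-fold, from 4248 and 1962 to 8434 and 9063, and the simple keratin Krt19 4.16-fold, from 12.6 and 16 to 69.6 and 50.2. The simple pair Krt8 (141 and 75.3 in qHF-SC and 467 and 187 in aHF-SC) and Krt18 (15.1 and 15 in qHF-SC and 60.2 and 26.3 in aHF-SC) did not pass (adjusted p = 0.103 and 0.061).

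Differentiation genes of the hair itself rose in part in the activated cells. Of 17 inner root sheath genes 6 rose and none fell (median log2 difference 0.74). The sheath keratin Krt25 measured 22.7 and 13.8 in qHF-SC and 99.6 and 245 in aHF-SC, against 2615 and 5249 in HF-TAC, and Krt28 and Krt27 rose 4.42-fold and 3.4-fold. Padi3, which converts arginine in the sheath protein trichohyalin, was robust at 17.6 and 20.2 in qHF-SC and 114 and 107 in aHF-SC, and cathepsin C (Ctsc) rose from 94.5 and 38.1 to 885 and 457. Of 21 hair shaft genes 3 rose and 1 fell. Krt35, the first hair keratin of the precortex, measured 12 and 16.2 in qHF-SC and 98.6 and 201 in aHF-SC, against 3528 and 8535 in HF-TAC, and Krtap8-1 18 and 10.7 in qHF-SC and 114 and 117 in aHF-SC. Crym rose 2.03-fold (0.029), and Selenbp1, a selenium-binding protein, fell 2.64-fold (0.044). The part of HF-TAC or other matrix cells among the sorted aHF-SC was not tested. The inner root sheath count was 1 without qHF-SC array 2, 3 without aHF-SC array 2, and 4 without either of the other arrays.

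Genes of the cornifying epidermis read lower. Of 21 measured, 3 fell and none rose (median log2 difference -0.54): loricrin Lor (1911 and 1809.5 in qHF-SC and 213 and 83.3 in aHF-SC), Krtdap (5164 and 5927 in qHF-SC and 1761 and 1699 in aHF-SC) and the suprabasal keratin Krt10 (7666 and 6478 in qHF-SC and 3029 and 2481 in aHF-SC). None kept its call with any single stem cell array left out, and the fit on the 4 stem cell arrays alone gave 9 falls. A list of 10 suprabasal keratinocyte markers summed to 36665 to 38111 in qHF-SC and to 20719 to 23804 in aHF-SC, higher in both quiescent arrays, and the part of such cells in the other falls was not tested. In the S100 family S100a4 fell from 17424 and 19342 to 6735 and 4401, and S100a14 rose 2.49-fold (0.0070).

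Over 15 lists of markers of other cells, 7 of 145 genes rose and 8 fell (10.3%, against 6.28% of all genes). No member of the dermal papilla, lymphoid, skeletal muscle, Merkel, erythroid or adipocyte lists passed. At an unadjusted limma p under 0.05 these lists held 8 genes in all, against 3685 of all 18193 genes tested. The summed melanocyte list was 2095 to 2368 in qHF-SC and 622 to 682 in aHF-SC, mostly from Mitf, a transcription factor of melanocytes, which fell from 1581 and 1801 to 175 and 175 (robust), and Gpnmb (199 and 301 in qHF-SC and 70.8 and 58.6 in aHF-SC); the melanocyte enzyme Tyr measured 6.69 and 8.09 in qHF-SC and 9.27 and 13.6 in aHF-SC, and Mlana 18.4 and 17.4 in qHF-SC and 21.9 and 29.5 in aHF-SC. The myeloid list summed to 549 to 666 and 459.6 to 459.7, with Cd68 lower (58.4 and 63.5 in qHF-SC and 18.6 and 28 in aHF-SC). The endothelial list summed to 314 to 338 and 317 to 335, with Tek higher (8.28 and 7.81 in qHF-SC and 24.5 and 31.6 in aHF-SC). In the nerve list Egr2, also an immediate early gene, and Ngfr (55.2 and 32.8 in qHF-SC and 134 and 118 in aHF-SC) rose. The sebaceous list summed to 5814 to 8103 and 4846 to 5395, with Scd1, the stearoyl desaturase, lower (1350.2 and 2297 in qHF-SC and 684 and 594 in aHF-SC).

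**Figure D5:**
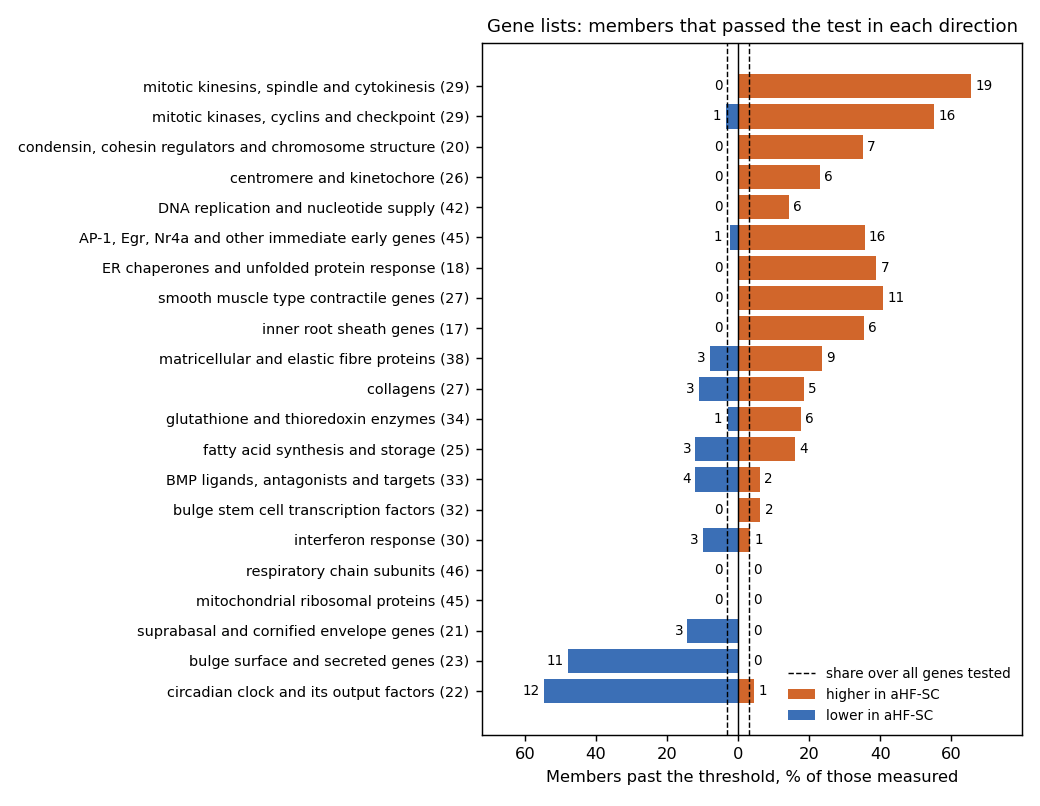
Share of the measured members (x axis, %) that rose (orange, right) or fell (blue, left) in 21 lists, with the number measured in brackets and the number passed beside each bar; dashed lines mark 3.07% and 3.21%, the shares over all genes. Division, immediate early, ER chaperone and contractile lists extend to the right, and the clock and bulge surface lists to the left. Part of the bulge surface list was drawn up from genes known to fall in these arrays. The respiratory chain and mitochondrial ribosome lists have no bar.

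Over 4 chromatin lists, 9 of 114 genes passed (7.89%), near the 6.28% over all genes. In the DNA methylation list 3 of 14 rose: Dnmt3l, a catalytically inactive cofactor of the de novo enzymes, from 16.1 and 14.5 to 75.6 and 57.8 (robust), Uhrf1, which guides Dnmt1 to replicated DNA, from 129 and 112 to 622 and 419, and Gadd45a 3.69-fold. Of 28 Polycomb genes, Pcgf5 fell 1.77-fold (0.035) and none rose, and Phf1 did not pass (-0.94 ± 0.23, 0.058). Of 36 lysine methyltransferases and demethylases Kmt2e fell 2.0-fold (0.020) and Smyd2 rose 1.92-fold (0.023). Of 36 remodellers and deacetylases Chd3 rose 2.8-fold (0.036), and Smarca1 (2.42-fold) and Hdac8 (1.73-fold) fell. Pcgf5, Kmt2e, Smyd2 and Hdac8 kept no call with any array left out.

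Among genes of growth and energy supply, none of 45 mitochondrial ribosomal proteins and none of 46 respiratory chain subunits passed in limma. Their medians were 0.09 and 0.12 on the log2 scale. An unadjusted limma p under 0.05 was found for 9 and 10 of them, against 3685 of all 18193 genes. The smallest were those of Mrps28 (0.50 ± 0.15) and Mrps25 (0.49 ± 0.15), and Cox5a (0.61 ± 0.15) and Cox7c (-1.11 ± 0.26). Of 33 genes of ribosome biogenesis 1 passed, a rise (3.03%, against 6.28% of all genes). It was Bysl, a factor of the small ribosomal subunit (1.88-fold, 0.030), while Nop14 did not pass (-0.59 ± 0.18). Of 19 synthetases Gars (1.85-fold) and Vars (1.72-fold) rose (10.5%, against 3.07% of all genes). In the Myc list 3 of 16 fell: ornithine decarboxylase Odc1, which starts polyamine synthesis, from 1140.0 and 1836 to 511 and 518, and the repressive partners Mxi1 (1.93-fold) and Mga (1.73-fold). Smox, which breaks down spermine, rose robustly from 50.7 and 25 to 252 and 268. In glycolysis and glucose uptake the lactate carrier Slc16a1 rose 4.4-fold (0.044), and the glucose carrier Slc2a3 read lower without passing (-1.54 ± 0.36, 0.050).

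Lipid enzymes moved both ways. Scd2, Fads2 and Fads3, desaturases, rose from 293 and 134 to 936 and 838, from 21.6 and 14 to 62.2 and 70.9 and from 52.7 and 31.3 to 201 and 152, while the desaturase Scd1 and the elongase Elovl4 fell, Elovl4 from 407 and 689.5 to 123 and 89.1. Fabp5, the epidermal fatty acid binding protein, rose 2.19-fold (0.016). In sum 4 of 25 rose and 3 fell, against 0 and 0 without qHF-SC array 2 or aHF-SC array 1, 1 and 0 without aHF-SC array 2, and 4 and 3 without qHF-SC array 1. Fatty acid oxidation gave 3 rises in 21 (14.3%, against 3.07% of all genes), Hadha (1.93-fold), Cpt1a (1.76-fold) and Acadl (1.74-fold). Sterol synthesis gave 2 in 21 (9.52%), Sc5d (2.5-fold) and Sqle (2.28-fold). The lysosomal proteases Ctsz and Ctsd rose 2.2-fold and 2.03-fold. Of metal carriers, Slc39a8, a zinc and manganese importer, fell robustly from 1759 and 1993 to 202 and 186, and transferrin receptor Tfrc rose from 111 and 86 to 1007 and 358. In the Bcl2 family the killer BH3 protein Pmaip1 (Noxa) rose robustly from 10.6 and 10.2 to 69.3 and 45.8 and the effector Bak1 2.42-fold, whereas Bid (1.94-fold) and Bok (1.82-fold) fell. The antimicrobial gene Wfdc18 rose from 105 and 47.3 to 669.9 and 336, and Lcn2 did not pass (0.069).

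Outside the lists, robust rises included Pla2g7, which hydrolyses platelet-activating factor (8.71 and 6.95 in qHF-SC and 224 and 126 in aHF-SC), adenylyl cyclase Adcy7 (45.3 and 26.3 in qHF-SC and 404 and 254 in aHF-SC) and the glycosyltransferase B3galnt1 (8.6 and 9.26 in qHF-SC and 101 and 56.6 in aHF-SC). Rassf4 rose 8.42-fold, the pantetheinase Vnn1 7.32-fold, the beta tubulin Tubb6 7.3-fold, the magnesium carrier Slc41a2 5.18-fold and the fibulin Fbln7 4.44-fold. B3galnt1, Rassf4 and Vnn1 read 7.73 and 8.11, 18.4 and 24.9 and 25.9 and 20.1 in HF-TAC, against 101 and 56.6, 141 and 135 and 122 and 80.6 in aHF-SC. Robust falls included Tsc22d3 (Gilz), a glucocorticoid-induced gene (2277 and 6137 in qHF-SC and 343 and 233 in aHF-SC), the zinc finger factor Zbtb16 (596 and 1027 in qHF-SC and 75.9 and 49.9 in aHF-SC) and the p53 target Dram1 (1049.8 and 1511 in qHF-SC and 86.1 and 101 in aHF-SC). The kainate receptor subunit Grik1 fell 12.8-fold, Tmtc1 11-fold, carboxypeptidase Cpa4 10.5-fold, the potassium channel Kcnma1 10.2-fold, Fam13c 10.02-fold and the procollagen enhancer Pcolce2 8.69-fold. Among abundant genes, thymosin Tmsb10 rose from 10851 and 9999 to 17067 and 17248, the acyl-CoA binding protein Dbi from 6078 and 3999.7 to 10736 and 11639 and the sodium pump subunit Atp1b3 from 3648 and 1861 to 7385 and 7295, and the growth factor Ptn fell from 8389.9 and 9750.1 to 5695 and 3946. Of all falls, 280 of 584 lay lower still in both HF-TAC arrays than in all 4 stem cell arrays, and of the rises 66 of 558 were lowest there.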

How the data were processed

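Total RNA of 6 sorted cell samples of mouse back skin was labelled as biotinylated cRNA and hybridised to Affymetrix arrays, per the labels' protocols. The values used are the authors' processed intensities, deposited on a linear scale with array medians of 22.8 to 23.9; RMA is named in the submitters' processing notes, with no version. Of 45101 probe sets, 64 controls, 932 with several gene symbols in the platform annotation and 9160 with none were left out, and the brightest of the remaining 34945 stood for each of 18193 genes. The number of arrays limits the precision.

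The log2 intensities of all 6 arrays were fitted with limma 3.58.1 in R 4.3.3, with a mean per state, 3 residual and 4.25 prior degrees of freedom, and Benjamini-Hochberg adjustment over all genes. The script was tested on simulated data. Alternatives left out each array, used the stem cell arrays alone, the replicate number as a block, other probe set rules, scalings, filters and an offset. Deviations from the state means correlated at 0.06 between qHF-SC and aHF-SC, at -0.13 between qHF-SC and HF-TAC and at 0.08 between aHF-SC and HF-TAC. These values show no strong effect of replicate number shared over all genes. They cannot show whether arrays of the same number were drawn or processed together.

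The genes and lists were chosen with earlier results of these data known. Named genes were drawn from the 20 robust rises and 20 robust falls with the largest change and the 10 rises and 10 falls largest in intensity. Each list gave up to 5 passed genes with the largest change (the 2 smallest p-values where fewer than 2 passed). Cell type markers were added. Other genes were chosen after their values were seen and are marked so. Rgs5, Myh11, Tyr and Mlana are also among these. Promoter sequences come from RefSeq, build GRCm38.p6, and 14452 genes matched by symbol.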

Additional observations from a re-analysis of the deposited data

How the results depend on the processing

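The 558 rises and 584 falls ranged from 54 to 379 and from 70 to 258 when 1 stem cell array was left out, and both counts were smallest without qHF-SC replicate 2. With either HF-TAC array or both left out the counts were 634 and 720. With an offset of 32 added before the log, they were 138 and 244. A replicate block gave 410 and 479, though it is not known whether the numbers pair the samples. Acta2 had -0.15 (limma adjusted p = 0.69) without probe sets that may cross-hybridise; those left lie under the array medians on every array, so this is no evidence of a reversal. Other probe set rules, scalings, the filter on dim genes and an intensity trend gave 510 to 680 rises and 474 to 650 falls. Leaving out an array leaves a lone sample that is assumed to vary like the other groups.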

Other observations

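A list of 33 genes known to respond to glucocorticoids held 10 genes that fell and 1 that rose (Ddit4), with a median log2 difference of -0.68. Over all genes 3.21% fell and 3.07% rose. The list was drawn up after the values were seen, so its direction is not independent evidence. Per1, Cdkn1c and Ddit4 also stand in the lists of clock genes, CDK inhibitors and Atf4 targets given above. Tsc22d3, induced by these hormones and an inhibitor of NF-kB, measured 2277 and 6137 in qHF-SC and 343 and 233 in aHF-SC. Fkbp5, a cochaperone of the receptor, measured 252 and 721 in qHF-SC and 94.6 and 96.3 in aHF-SC, 4.46-fold lower (limma adjusted p = 0.034). Over the mean of its 3 probe sets the log2 difference was -0.76 (limma adjusted p = 0.093), and the call was kept in 1 of the 4 fits that left out a stem cell array. Klf15 measured 304 and 672 in qHF-SC and 119 and 150.4 in aHF-SC, 3.37-fold lower (0.038), a call likewise kept in 1 of those 4 fits. The receptor itself, Nr3c1, fell from 1366 and 1358 to 653 and 565. Sgk1 (5343 and 6652 in qHF-SC and 5872 and 7124 in aHF-SC) and Tat (34 and 31.7 in qHF-SC and 33.6 and 32.2 in aHF-SC) did not pass. In the quiescent pair 29 of the 33 genes, and 9 of the 10 that fell, were brighter in replicate 2 than in replicate 1. Over all 18193 genes 9097 were.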
